A study of Mus musculus with 30 samples.

Results

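The enzymes described are 9 listed genes of the peroxisomal beta-oxidation cycle: Acox2, Acox3, Ehhadh, Hsd17b4, Acaa1a, Acaa1b, Ech1, Decr2 and Pecr. Each was found by its symbol in the platform annotation of the array and was read from the probe set of that symbol whose mean over the 30 arrays was highest. They are 9 of the 18193 genes that a probe set with a single symbol names, and 13 such probe sets belong to them. All 9 passed the filter on dim probe sets in both tissues.

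Levels were measured on Affymetrix mouse expression arrays in fetal liver and fetal lung of CD-1 mice, an outbred stock. Dams were gavaged with the potassium salt of perfluorooctane sulfonate (PFOS), a persistent fluorinated surfactant, at 0, 5 or 10 mg/kg/day. Dosing in 0.5% Tween 20, which the 0 mg/kg/day dams also received, covered gestation days 1 to 17, and fetuses were collected on day 18. Each array holds RNA of 3 fetuses pooled within 1 litter, so a litter is the unit of replication, with 5 litters per tissue and dose. The labels do not state whether the liver and lung arrays came from the same litters. Whole tissue was sampled, so fewer cells of a type and less RNA per cell cannot be told apart.

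Peroxisomal beta-oxidation shortens very long-chain, branched-chain and dicarboxylic fatty acids and the side chains of bile acid precursors. An acyl-CoA oxidase starts each turn and releases hydrogen peroxide, a bifunctional enzyme hydrates and dehydrogenates the product, and a thiolase cleaves off the shortened acyl-CoA. Auxiliary reductases and isomerases deal with double bonds. In rodent liver many of these genes are known targets of the nuclear receptor PPARalpha, which fatty acids and several perfluorinated compounds activate.

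PPARalpha binds with its partner RXR to a direct repeat of the hexamer AGGTCA with 1 base between the copies. The proximal promoters of 8 of the 9 members were at hand from RefSeq (build GRCm38.p6), each from 250 bases before to 50 bases after a gene start, and were searched for that repeat on both strands. The 4 printed are those of Ehhadh, Acaa1b and its near-identical relative Acaa1a, and Acox2, because Ehhadh and Acaa1b had the largest changes of the members with PFOS, Acaa1a a smaller one and Acox2 no called change. Each is printed 5′ to 3′ on the strand of its gene, to 30 bases after the start, with the closest match to the repeat in capitals. Both starts and ends refer to the printed stretch.
Ehhadh, minus strand, chr16:21787805-21788084: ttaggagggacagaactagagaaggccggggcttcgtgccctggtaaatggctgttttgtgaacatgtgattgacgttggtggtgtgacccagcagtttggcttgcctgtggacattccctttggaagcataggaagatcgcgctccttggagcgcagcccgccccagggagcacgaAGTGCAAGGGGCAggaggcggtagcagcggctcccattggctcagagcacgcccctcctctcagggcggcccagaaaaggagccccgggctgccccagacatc
Acaa1b, minus strand, chr9:119157064-119157343: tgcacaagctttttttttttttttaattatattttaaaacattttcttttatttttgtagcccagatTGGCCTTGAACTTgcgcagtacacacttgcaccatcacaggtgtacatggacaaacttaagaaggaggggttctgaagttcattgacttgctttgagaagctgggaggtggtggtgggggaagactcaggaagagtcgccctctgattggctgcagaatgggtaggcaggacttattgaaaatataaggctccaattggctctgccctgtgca
Acaa1a, plus strand, chr9:119341044-119341323: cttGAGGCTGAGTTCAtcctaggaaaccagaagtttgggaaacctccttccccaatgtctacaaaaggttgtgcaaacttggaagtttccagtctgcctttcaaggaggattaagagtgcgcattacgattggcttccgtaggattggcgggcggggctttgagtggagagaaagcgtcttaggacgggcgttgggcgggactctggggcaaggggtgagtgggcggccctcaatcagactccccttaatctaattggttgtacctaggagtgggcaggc
Acox2 (the second of its 2 annotated starts), minus strand, chr14:8258810-8259089: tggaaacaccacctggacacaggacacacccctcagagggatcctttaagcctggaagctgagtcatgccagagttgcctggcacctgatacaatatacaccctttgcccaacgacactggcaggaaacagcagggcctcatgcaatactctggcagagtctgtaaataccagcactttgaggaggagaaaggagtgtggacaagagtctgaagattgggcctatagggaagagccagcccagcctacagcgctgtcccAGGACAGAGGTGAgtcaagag

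Of the 12 fixed letters of the repeat, the closest match missed 4 in Ehhadh, 4 in Acaa1b (on the opposite strand), 5 in Acaa1a and 2 in Acox2. A match with as few as 2 mismatches occurred in 3.86% of all 32851 windows, one with up to 4 in 79.8% and one with up to 5 in 99.9%. The other Acox2 window missed 3 letters, Acox3 and Ech1 missed 4, and Decr2 and Pecr missed 5. Within the limit of 3 mismatches, which 24.6% of all windows met, Acox2 was the 1 member with a match. These are counts of letters in short windows and describe neither binding nor more distant sequence.

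Without PFOS, 8 of the 9 members had higher levels in fetal liver than in fetal lung by limma at an adjusted p under 0.05. Liver was also higher for 42.6% of all genes tested in this comparison and lower for 40.4%. The log2 difference of unexposed liver minus unexposed lung was 5.21 for Acaa1b, 4.65 for Acox2, 4.57 for Ehhadh, 3.94 for Pecr and 2.84 for Decr2. It was 1.94 for Ech1, 0.92 for Hsd17b4 and 0.38 for Acaa1a. Acox3 differed by -0.10 (95% interval -0.35 to 0.15, limma adjusted p = 0.451), with a probe set near the filter limit in both tissues.

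In fetal liver, PFOS was accompanied by higher levels of the bifunctional enzymes, the thiolases and the auxiliary enzymes Ech1 and Decr2, and by no called change of the listed oxidases. At 5 mg/kg/day 5 of the 9 members rose and 0 fell, and at 10 mg/kg/day 6 of them rose and 1 fell (limma, adjusted p under 0.05 over all genes tested). Of all 13269 genes tested in liver, the lower dose had 4.26% called higher and 1.81% called lower, and the higher dose had 5.3% called higher and 5.22% called lower. The median log2 change of the members was 0.55 and 0.76 at these doses, beside -0.01 and -0.02 over all genes tested. Both doses are set against the same unexposed litters.

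**Figure D1:**
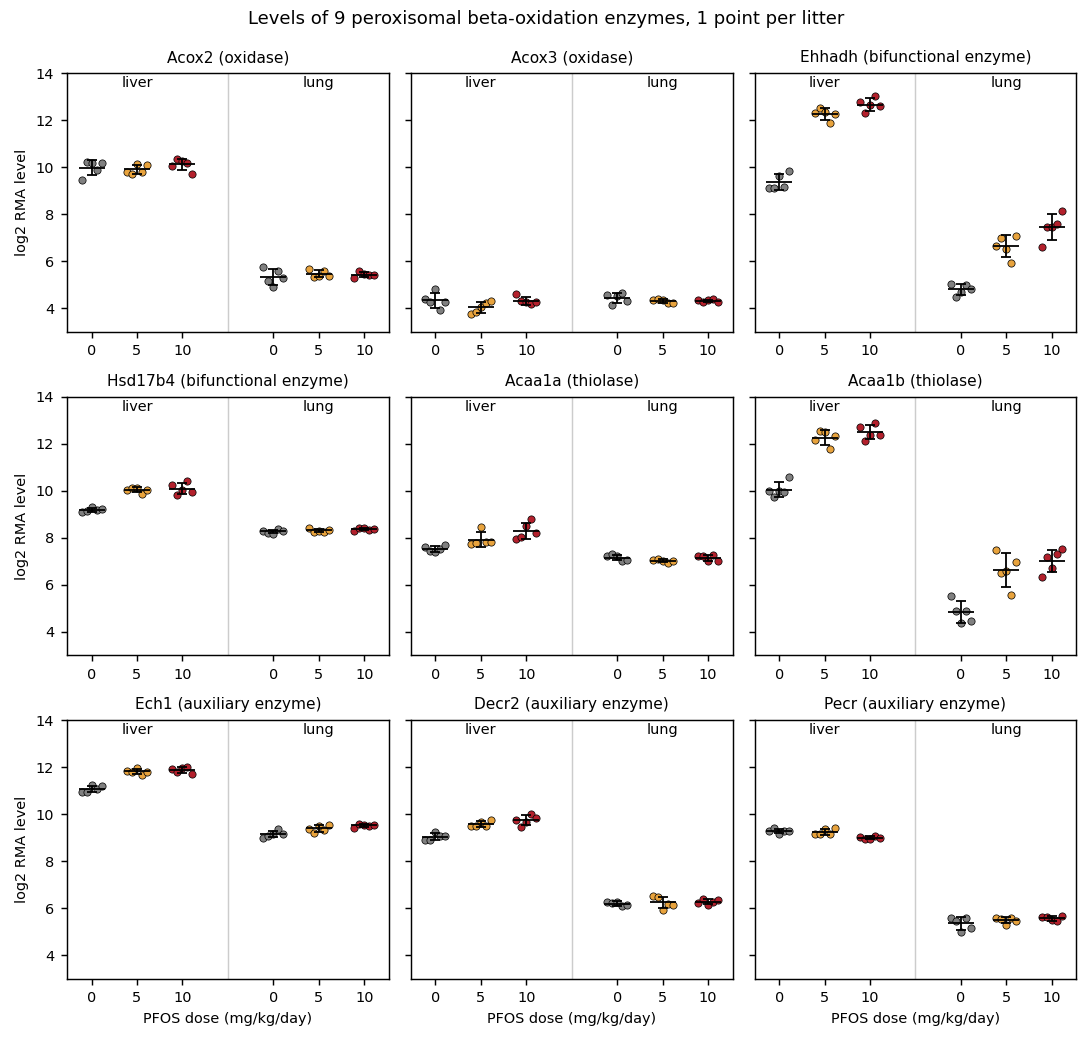
Log2 RMA level (vertical axis) of each member by PFOS dose in mg/kg/day (horizontal axis), with liver on the left and lung on the right of each panel; points are litters (n = 5 per group) and bars are the mean and SD. Ehhadh and Acaa1b stand above the unexposed litters in every exposed litter of both tissues, whereas Acox2 and Acox3 overlap across doses in both.

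The listed oxidases gave no called change in either tissue. Acox2, which oxidises bile acid precursors and branched chains, had 9.44, 10.22, 10.16, 9.89 and 10.19 log2 units in liver at 0 mg/kg/day. It had 9.81, 9.73, 10.15, 9.79 and 10.09 at 5 mg/kg/day and 10.07, 10.37, 10.26, 10.18 and 9.72 at 10 mg/kg/day. The 3 dose groups overlapped, and the log2 change was -0.07 (95% interval -0.38 to 0.25, limma adjusted p = 0.861) at the lower dose and 0.14 (-0.18 to 0.46, adjusted p = 0.641) at the higher. Acox2 in lung ranged from 4.89 to 5.76 over all 15 arrays, with changes of 0.13 and 0.09. Acox3, which oxidises branched-chain acyl-CoAs such as pristanoyl-CoA, was dim: its liver litters ranged from 3.76 to 4.81 and its lung litters from 4.14 to 4.65, around the filter limit of 4.16 to 4.23. Its liver changes were -0.30 (limma adjusted p = 0.262) and -0.01 (adjusted p = 0.982), and a change at so low a signal can be understated.

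Of the bifunctional enzymes, Ehhadh had the largest change of the 9 members in liver. It had 9.12, 9.10, 9.64, 9.16 and 9.82 log2 units in unexposed livers. At 5 mg/kg/day the litters had 12.32, 12.51, 12.37, 11.87 and 12.25, and at 10 mg/kg/day 12.78, 12.31, 12.65, 13.02 and 12.58. Every exposed litter lay above every unexposed one: the lowest exposed litter had 11.87 and the highest unexposed litter 9.82. At the lower dose Ehhadh rose 7.44-fold, a log2 change of 2.90 (SE 0.16, limma adjusted p = 2.66e-08). At the higher dose it rose 9.85-fold, a log2 change of 3.30 (SE 0.16, limma adjusted p = 3.62e-09), with a 95% interval of the fold of 7.77 to 12.5.

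Hsd17b4 carries out the same pair of reactions with the opposite stereochemistry and handles branched chains and bile acid precursors. Its liver litters had 9.08, 9.15, 9.29, 9.16 and 9.22 at 0 mg/kg/day. They had 10.05, 10.13, 10.12, 9.85 and 10.04 at 5 mg/kg/day, and 10.25, 9.83, 10.01, 10.40 and 9.93 at 10 mg/kg/day. The exposed litters did not overlap the unexposed ones. Hsd17b4 rose by 0.86 (limma SE 0.10, adjusted p = 3.55e-05) at the lower and 0.90 (SE 0.10, adjusted p = 1.22e-05) at the higher dose, or 1.81-fold and 1.87-fold. A dimmer probe set of the gene gave 0.93 and 1.09, also called.

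Ehhadh changed more than Hsd17b4 in both tissues. The difference of their log2 changes, taken litter by litter so that the offset between probe sets cancels, was 2.04 (95% interval 1.72 to 2.36) at 5 mg/kg/day and 2.40 (2.10 to 2.70) at 10 mg/kg/day in liver. In lung it was 1.80 (1.31 to 2.30) and 2.56 (1.99 to 3.12). An exact two-sided permutation test over litters gave p = 0.00794 in each of these, the smallest that 5 against 5 litters allow, and p = 0.0159 after Benjamini-Hochberg adjustment. The adjustment covered 24 tests, made of 6 pairs within a class, 2 doses and 2 tissues, of which 13 passed.

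The thiolase Acaa1b rose in liver at both doses. It had 9.99, 9.72, 9.97, 9.93 and 10.56 log2 units at 0 mg/kg/day. At 5 mg/kg/day it had 12.14, 12.53, 12.50, 11.79 and 12.35, and at 10 mg/kg/day 12.72, 12.11, 12.37, 12.90 and 12.36. All exposed litters were above all unexposed ones, and the change was 2.23 (limma SE 0.18, adjusted p = 1.40e-06) at the lower and 2.46 (SE 0.18, adjusted p = 2.08e-07) at the higher dose, or 4.68-fold and 5.49-fold.

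Acaa1a encodes a thiolase nearly identical to that of Acaa1b, and its probe sets are of a kind that can share probes with related transcripts, so the separation of the pair is uncertain. Its liver litters had 7.60, 7.44, 7.40, 7.50 and 7.70 at 0 mg/kg/day. They had 7.73, 7.76, 8.46, 7.82 and 7.82 at 5 mg/kg/day, and 7.95, 8.01, 8.48, 8.79 and 8.21 at 10 mg/kg/day. No exposed litter overlapped the unexposed ones. Litter 3 of the 5 mg/kg/day group stood apart from the other 4, and the change of 0.39 at that dose did not pass (limma adjusted p = 0.170). At 10 mg/kg/day Acaa1a rose by 0.76 (SE 0.16, adjusted p = 0.00484).

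A dimmer probe set of Acaa1a gave 0.79 (limma adjusted p = 0.0394) and 1.01 (adjusted p = 0.00581) in a fit of all probe sets, so at 5 mg/kg/day the probe sets of Acaa1a fell on both sides of the threshold. A pair of probe sets annotated to both thiolases at once, which name no single gene, rose by 1.81 and 1.74 at 5 mg/kg/day and by 2.14 and 2.01 at 10 mg/kg/day in liver. The same pair changed by 0.08 and 0.14 at 5 mg/kg/day and by 0.09 and 0.14 at 10 mg/kg/day in lung, with no call. Acaa1b changed more than Acaa1a in liver, by 1.83 (95% interval 1.42 to 2.25) and 1.69 (1.28 to 2.11), and in lung, by 1.93 (1.12 to 2.75) and 2.18 (1.49 to 2.87). Each had the exact permutation p = 0.00794, adjusted p = 0.0159.

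Among the auxiliary enzymes, Ech1 and Decr2 rose in liver and Pecr did not. Ech1, a dienoyl-CoA isomerase, had 10.96, 10.94, 11.23, 11.07 and 11.20 log2 units at 0 mg/kg/day. It had 11.85, 11.79, 11.98, 11.65 and 11.81 at 5 mg/kg/day, and 11.90, 11.81, 11.95, 12.00 and 11.72 at 10 mg/kg/day. The exposed litters all lay above the unexposed ones, and Ech1 rose by 0.73 (limma SE 0.08, adjusted p = 2.31e-05) at the lower and 0.80 (SE 0.08, adjusted p = 5.73e-06) at the higher dose.

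Decr2, the peroxisomal dienoyl-CoA reductase, had 8.88, 8.90, 9.24, 9.05 and 9.07 in unexposed livers. It had 9.50, 9.49, 9.67, 9.49 and 9.74 at 5 mg/kg/day and 9.75, 9.46, 9.67, 10.01 and 9.84 at 10 mg/kg/day. These groups did not overlap the unexposed litters either. Decr2 rose by 0.55 (limma SE 0.10, adjusted p = 0.00252) at the lower and 0.72 (SE 0.10, adjusted p = 0.000131) at the higher dose.

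Pecr, the peroxisomal enoyl-CoA reductase, is the member that fell. Its liver litters had 9.29, 9.42, 9.15, 9.29 and 9.30 at 0 mg/kg/day and 9.16, 9.14, 9.37, 9.14 and 9.43 at 5 mg/kg/day, which overlapped. At 10 mg/kg/day they had 9.04, 8.93, 8.95, 9.08 and 8.96, all below the unexposed litters, and the change was -0.30 (SE 0.07, limma adjusted p = 0.0126). The step is small: 0.815 times the unexposed level. A dimmer Pecr probe set, near 5.12 log2 units, changed by -0.09 and 0.0033 in liver and was not called, so the fall rests on 1 probe set.

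The changes of Ech1 and Decr2 were both larger than that of Pecr in liver. Ech1 exceeded Pecr by 0.78 (95% interval 0.52 to 1.03) and 1.09 (0.85 to 1.33), and Decr2 exceeded Pecr by 0.59 (0.35 to 0.83) and 1.01 (0.73 to 1.30), each with the exact permutation p = 0.00794 and adjusted p = 0.0159. Ech1 exceeded Decr2 by 0.18 at 5 mg/kg/day (0.05 to 0.32, exact p = 0.0238, adjusted p = 0.0440) and by 0.08 at 10 mg/kg/day (-0.13 to 0.29, exact p = 0.405). The listed oxidases did not pass this test in either tissue. Acox2 minus Acox3 was 0.24 (-0.26 to 0.73) and 0.15 (-0.40 to 0.69) in liver and 0.25 (-0.13 to 0.63) and 0.21 (-0.15 to 0.58) in lung, so the intervals hold differences in either direction.

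**Figure D2:**
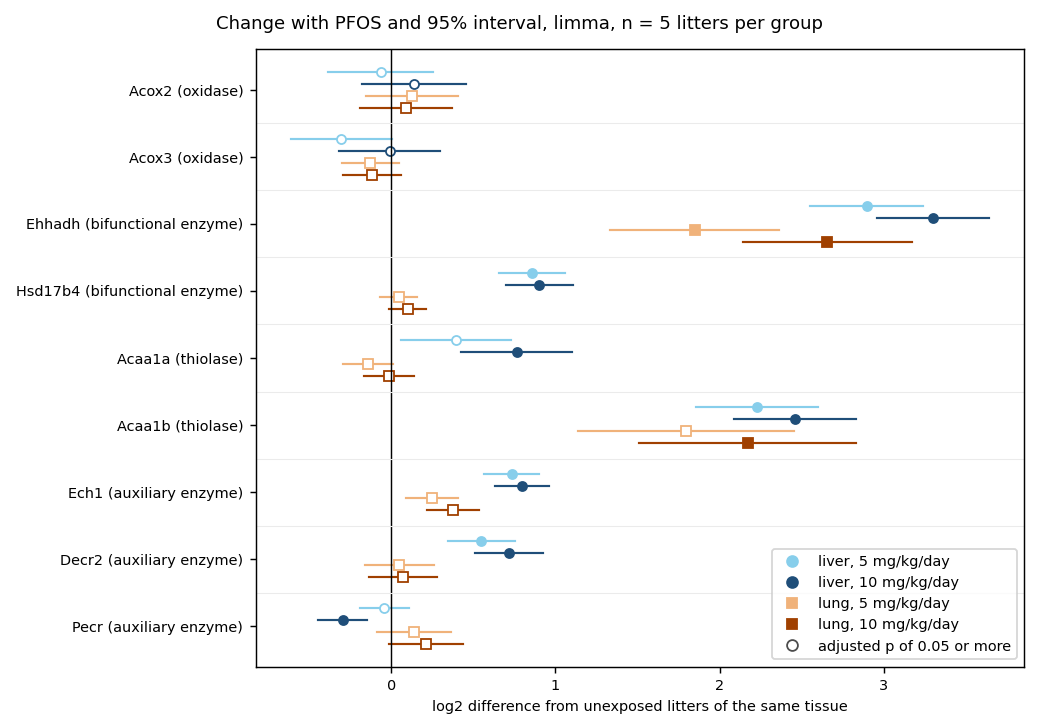
Log2 difference from unexposed litters within each tissue (horizontal axis) for each member, with circles for liver, squares for lung, lighter colours for 5 and darker for 10 mg/kg/day, and bars for the 95% interval of the limma fit. Filled symbols passed an adjusted p of 0.05. Ehhadh and Acaa1b lie far right of the other members in both tissues, and the lung symbols of the other members lie between -0.14 and 0.38 and are all open.

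In fetal lung, 1 member rose at 5 mg/kg/day and 2 rose at 10 mg/kg/day, with 0 falls. Very few genes of any kind were called there: of 12897 tested, 0.0155% rose with the lower dose, while with the higher dose 0.0388% rose and 0.0155% fell. The median change of the members was 0.13 and 0.10, beside 0.0041 and 0.0052 over all genes tested.

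Ehhadh in lung had 5.03, 4.46, 4.68, 4.99 and 4.83 log2 units at 0 mg/kg/day. It had 6.66, 7.00, 6.52, 5.94 and 7.08 at 5 mg/kg/day and 6.62, 7.45, 7.45, 7.60 and 8.14 at 10 mg/kg/day. Both exposed groups lay wholly above the unexposed litters and overlapped each other. Ehhadh rose by 1.85 (SE 0.24, limma adjusted p = 0.00760), or 3.60-fold, and by 2.66 (SE 0.24, adjusted p = 7.08e-05), or 6.30-fold. The call at 5 mg/kg/day was lost (1.90, adjusted p = 0.0707) when litter 1 of the 0 and 5 mg/kg/day lung groups, those richest in hepatocyte transcripts, were left out.

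Acaa1b in lung had 5.52, 4.89, 4.38, 4.89 and 4.45 at 0 mg/kg/day. It had 7.49, 6.51, 6.59, 5.57 and 6.95 at 5 mg/kg/day and 6.34, 7.16, 6.69, 7.29 and 7.50 at 10 mg/kg/day. No exposed litter overlapped the unexposed ones, although litter 4 at 5 mg/kg/day (5.57) lay next to the highest of them (5.52). The change at 5 mg/kg/day was 1.79 (SE 0.31, limma adjusted p = 0.132), which did not pass, and at 10 mg/kg/day Acaa1b rose by 2.17 (SE 0.31, adjusted p = 0.0111), or 4.50-fold. The call at 10 mg/kg/day was lost without unexposed litter 3 (adjusted p = 0.0555) or without litter 5 of the 10 mg/kg/day group (adjusted p = 0.0509), and the one at 5 mg/kg/day was gained without litter 4 of that group (2.06, adjusted p = 0.00773).

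Ech1 in lung had 8.98, 9.08, 9.15, 9.35 and 9.15 at 0 mg/kg/day. It had 9.38, 9.21, 9.48, 9.33 and 9.55 at the lower dose, and 9.42, 9.60, 9.53, 9.50 and 9.54 at the higher. Only the 10 mg/kg/day group lay wholly above the unexposed litters. The changes of 0.25 (limma adjusted p = 0.863) and 0.38 (adjusted p = 0.144) did not pass. Hsd17b4 changed by 0.05 and 0.10, Decr2 by 0.05 and 0.07, Pecr by 0.14 and 0.21, and Acaa1a by -0.14 and -0.01, all without a call.

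The lung arrays also held hepatocyte transcripts. The 11 hepatocyte markers with a probe set, plasma proteins such as albumin, summed to 12.6 to 14.1 log2 units in unexposed lungs, 13.1 to 14.2 at 5 mg/kg/day and 12.3 to 13.8 at 10 mg/kg/day, against 16.4 to 16.5 in livers of all groups. Albumin itself averaged 12.25, 12.33 and 12.07 in lung by dose. None of the 11 was called in lung by limma at either dose (0 of 11 at each), with 1 of 11 at an unadjusted p under 0.05, namely Afp at 10 mg/kg/day, and their median change was 0.13 and -0.17. In unexposed lungs Ehhadh ranked the litters as the marker sum did, from litter 2 (sum 12.6, Ehhadh 4.46) to litter 1 (14.1 and 5.03). Acaa1b did not, with its lowest unexposed level in litter 3 (4.38). Within the 10 mg/kg/day lung group, litter 1 had the lowest marker sum (12.3) and also the lowest Ehhadh (6.62) and Acaa1b (6.34). Litter 5 of that group had the highest sum (13.8), Ehhadh (8.14) and Acaa1b (7.50). The litters between were in another order for Ehhadh and for Acaa1b than for the sum. Within the 5 mg/kg/day group the order was another: litter 2, with the lowest sum (13.1), had the second-highest Ehhadh (7.00), and litter 1, with the highest sum (14.2), had the middle Ehhadh (6.66) and the highest Acaa1b (7.49). A further limma fit used the hepatocyte marker level as a covariate, taken as the mean log2 level of the 11 markers and not as their sum. In it Ehhadh changed by 1.77 and 2.72 and Acaa1b by 1.67 and 2.27, all called, with adjusted p = 0.00239 for Acaa1b at 5 mg/kg/day. That covariate does not separate lung from liver transcripts of the members themselves, and the share of the lung changes that comes from liver RNA was not tested.

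**Figure D3:**
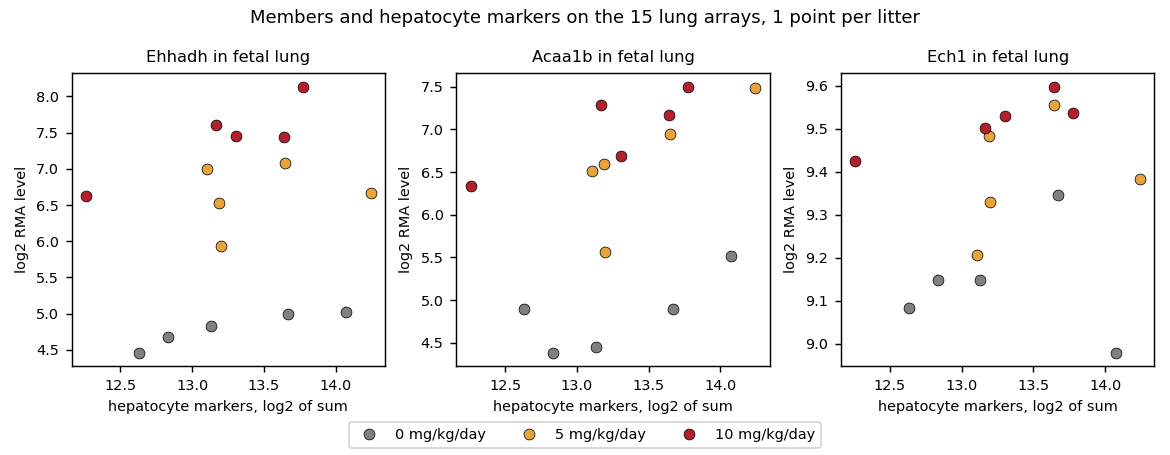
Log2 RMA level of Ehhadh, Acaa1b and Ech1 (vertical axes) against the log2 of the summed hepatocyte markers (horizontal axis) on the 15 lung arrays, 1 point per litter, coloured by dose. The dose groups span overlapping marker sums, 12.6 to 14.1 at 0, 13.1 to 14.2 at 5 and 12.3 to 13.8 at 10 mg/kg/day. The levels of Ehhadh and Acaa1b separate exposed from unexposed litters. Both genes also rose in liver, so overlapping sums do not separate their lung from their liver transcripts. The share of liver RNA was not tested.

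The tissues were compared in 1 fit of all arrays, as the change in liver minus the change in lung. At 5 mg/kg/day the difference passed for 2 members, Hsd17b4 (0.81, limma adjusted p = 3.51e-05) and Ech1 (0.48, adjusted p = 0.0116), beside 1.57% of genes with a higher and 0.484% with a lower change in liver. At 10 mg/kg/day it passed for Hsd17b4 (0.80, adjusted p = 1.84e-05), Acaa1a (0.78, adjusted p = 0.00953), Decr2 (0.64, adjusted p = 0.00554) and Ech1 (0.42, adjusted p = 0.0218), and in the opposite direction for Pecr (-0.51, adjusted p = 0.0193). Over all genes tested, 2.22% had a higher and 1.67% a lower change in liver at that dose. The Pecr difference was -0.25 (adjusted p = 0.357) with the mean of its probe sets, and without unexposed liver litters 2, 3 and 5 the calls of Pecr (-0.51, adjusted p = 0.0860) and Acaa1a (0.75, adjusted p = 0.0676) at 10 mg/kg/day were lost. Ehhadh, with differences of 1.05 (95% interval 0.42 to 1.68, adjusted p = 0.0773) and 0.65 (0.02 to 1.28, adjusted p = 0.297), did not pass. Acaa1b did not pass either, with 0.43 (-0.34 to 1.21) and 0.29 (-0.49 to 1.06). In unexposed lungs Ehhadh (4.46 to 5.03) and Acaa1b (4.38 to 5.52) lay near the filter limit of 4.16 to 4.22 there. A lung change from so low a signal can be understated.

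Between the doses, no member was called in either tissue. Of 13269 liver genes 1 was called in either direction (0.00754%), with 1035 at an unadjusted p under 0.05, and of 12897 lung genes 0 were called (0.0%), with 296 at an unadjusted p under 0.05. In liver, the 10 against 5 mg/kg/day differences with an unadjusted limma p under 0.05 were those of Ehhadh (0.41, adjusted p = 0.581), Acaa1a (0.37, adjusted p = 0.608) and Pecr (-0.25, adjusted p = 0.436). In lung it was that of Ehhadh (0.81, 95% interval 0.29 to 1.32, limma adjusted p = 0.999965). Hsd17b4, with 0.05 (-0.16 to 0.25), and Ech1, with 0.06 (-0.10 to 0.23), had the smallest differences between doses in liver.

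Other genes of the pathway, from a list of partners of which 19 were matched to a probe set, rose in liver alongside the members. Of 18 tested in liver, 11 rose with 0 falls at the lower dose, beside 4.26% of all genes called higher and 1.81% called lower. At the higher dose 12 rose with 0 falls, beside 5.3% called higher and 5.22% called lower. The median changes of the partners were 0.43 and 0.48. By role, the 3 genes of entry and activation rose at both doses, as did the enoyl-CoA isomerase Eci2, and of the 7 genes of exit and CoA turnover 4 rose at 5 and 5 at 10 mg/kg/day. Of the 3 genes of racemisation and alpha-oxidation, Amacr rose at both doses (0.57 and 0.50) and Hacl1 at 5 mg/kg/day (0.39), while Phyh, with -0.08 and -0.25, was not called. The sterol carrier thiolase Scp2 (0.03 and -0.05) and the cofactor transporter Slc25a17 (0.20 and 0.01) were not called at either dose, and catalase (Cat) was called at 10 mg/kg/day (0.29). The acyl-CoA thioesterases Acot3 and Acot4, which release free acids, rose by 2.32 and 2.66 and by 2.03 and 2.47. Abcd3, a transporter of acyl-CoAs in the peroxisomal membrane, rose by 1.18 and 1.30. Crot, which makes carnitine esters for export, rose by 1.08 at 5 mg/kg/day. Its liver means were 9.35, 10.43 and 10.59 log2 units at 0, 5 and 10 mg/kg/day. Pex11a, a membrane protein of peroxisome proliferation, rose by 1.48 at 10 mg/kg/day, with liver means of 7.54, 8.59 and 9.02 at these doses.

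In lung, 0 of 17 tested partners were called by limma at either dose, with 3 at an unadjusted p under 0.05 at each. Slc27a2, a very long-chain acyl-CoA synthetase, had changes of 1.19 and 1.01 (limma adjusted p = 0.730 and 0.495), and Eci2 of 0.25 and 0.32. With the hepatocyte marker level as a covariate Slc27a2 was called, at 1.04 (adjusted p = 0.000370) and 1.13 (adjusted p = 4.0e-05). That was the 1 of 12 alternatives that called it at either dose. Slc27a2 averaged 11.27 in unexposed liver against 5.29 in unexposed lung, and the covariate does not separate lung from liver transcripts of it.

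**Figure D4:**
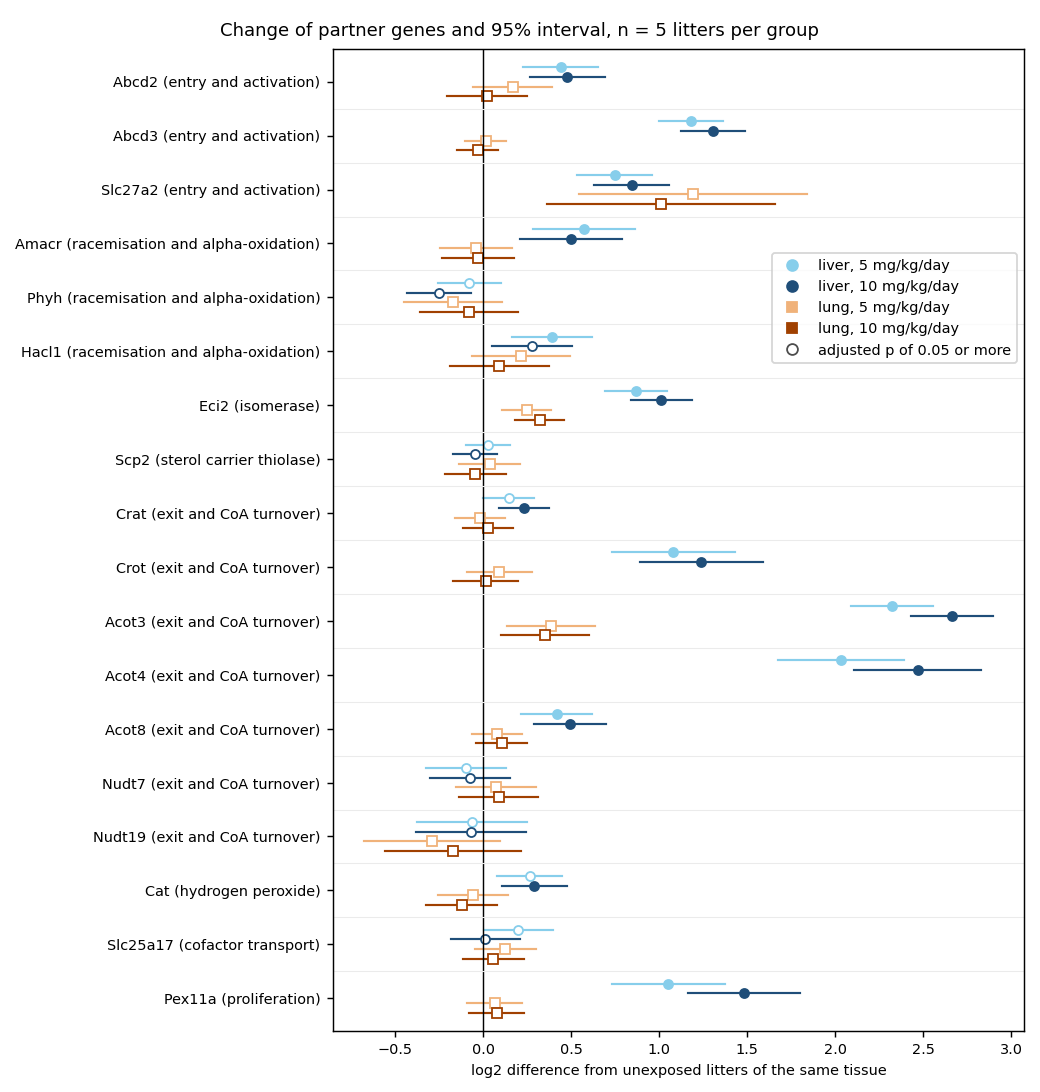
Log2 difference from unexposed litters within each tissue (horizontal axis) for the partner genes tested, with their role in brackets, drawn as for the members: circles for liver, squares for lung, lighter for 5 and darker for 10 mg/kg/day, 95% intervals, filled where the adjusted p was under 0.05. Acot3 and Acot4 in liver lie furthest right, and no lung symbol is filled.

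Across the 30 arrays, the gene whose departures from the unexposed mean were most like those of Ehhadh among 12310 genes tested in both tissues was Acaa1b, with a root mean square difference of 0.554 log2 units. It was followed by Cyp4a14 at 0.856, a fatty acid omega-hydroxylase, the thioesterase Acot1 at 1.11, Cyp4a12a at 1.12 and Acot3 at 1.21. Next to Acaa1b came Ehhadh, then Cyp4a12a at 0.777, Cyp4a14 at 0.908, the drug-metabolising Cyp3a11 at 0.934 and the fatty acid binding protein Fabp1 at 0.957. The orders of the tissues differed among them: Cyp4a14 changed by 2.13 and 2.29 in liver and by 3.01 and 3.60 in lung, whereas Acot1 changed by 2.98 and 3.28 in liver and by 0.38 and 0.53 in lung. The arrays share tissues, doses and unexposed litters, so this is a description.

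The labelled tissues bore their markers, with lung epithelium markers summing to 15.1 to 15.3 log2 units in lung and 9.1 to 9.9 in liver. Cardiac muscle markers varied in lung, from 11.0 to 13.7 at 0, 10.8 to 12.9 at 5 and 12.0 to 13.6 at 10 mg/kg/day, with 0 of 8 called. In liver, the sum of the stomach markers was raised in unexposed litters 2, 3 and 5. It was 11.5, 10.0 and 9.48 there, against 8.19 to 8.47 in exposed livers. Cym, a stomach protease, averaged 7.86 in unexposed livers against 5.38 and 5.04 at 5 and 10 mg/kg/day, and was called lower at 10 mg/kg/day. Atp4a, Tff1 and Gkn2 also had their highest mean in unexposed livers. Gkn1 (4.06 against 4.14 and 4.13) and Muc5ac (5.02 against 5.16 and 5.03) had their lowest mean there. Without unexposed litters 2, 3 and 5, which left 2 unexposed livers, 5 members rose at each dose in liver. Acaa1a (0.74, limma adjusted p = 0.102) and Pecr (-0.30, adjusted p = 0.113) lost their calls at 10 mg/kg/day with like changes. The share of all genes called in that fit is not reported here. The hepatocyte markers Ahsg and Apoa1 (-0.18 and -0.17 at 10 mg/kg/day) and the erythroid marker Hemgn (-0.41 at 5 mg/kg/day) were the other marker calls in liver. None of the markers of exocrine pancreas (4 tested) or of kidney and adrenal (2 tested) was called in liver. The pancreas sums varied among livers, from 6.19 to 8.27 at 0, 6.32 to 8.34 at 5 and 6.30 to 7.28 at 10 mg/kg/day. Their median change was 0.15 at the lower and -0.59 at the higher dose.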

How the data were processed

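The deposited values are log2 probe set levels that the authors computed by RMA (background correction, quantile normalization and a robust summary of each probe set), a tool named in the submitters' processing notes. Its version, and whether liver and lung were normalized jointly, is not given in the sources used here. RNA with an integrity number of at least 8 was used, per the labels' protocols. RMA compresses changes of dim probe sets, and the number of arrays limits the precision.

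Of 45101 probe sets, 34945 had 1 gene symbol in the platform annotation, 932 had several and 9160 had none, and 64 were the maker's controls. A gene was tested in a tissue if its probe set exceeded the array's 40th percentile on 5 or more of the 15 arrays, which left 13269 genes in liver and 12897 in lung. Each tissue was fitted with limma 3.58.1 (R 4.3.3), 1 mean per dose, and the tissues were compared in 1 fit of 30 arrays over 13856 genes. A call is a Benjamini-Hochberg adjusted p under 0.05 over all genes tested, two-sided. Exact permutation tests used Python 3.11.15 with numpy 2.4.6, tables pandas 2.3.3, intervals scipy 1.17.1 and figures matplotlib 3.10.9. Both statistics were tested on simulated data first.

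All 9 members were named in every comparison. Of the partner list, up to 4 called genes by size of change were named per comparison and direction, or, where none was called, up to 2 with the smallest p. For Ehhadh and Acaa1b the 5 most alike genes were named. The probe sets annotated to both thiolases, the role counts with the genes named beside them and the markers named were singled out after their values were seen. The members and lists were chosen with earlier results of these data known. The partner Acsl1 and the hepatocyte marker Trf were not analysed here, having matched no single-symbol probe set, and further genes of the pathway are not reported here. Alternatives covered the filter, the normalization, the use of several probe sets, array weights, the spread model, a block for the replicate number, the samples fitted, a hepatocyte covariate and leaving out each litter.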

Additional observations from a re-analysis of the deposited data

Results flagged for a closer look

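In 1 of the 54 groups of 5 litters, 1 litter stood apart from the rest: the liver of litter 3 at 5 mg/kg/day had an Acaa1a level of 8.46 log2 units, against 7.73 to 7.82 in the other 4 litters of its group. Chance flags about 1 in 20 such groups.

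Several members changed differently in liver and in lung by the test of that difference (limma, all arrays). At 5 mg/kg/day the change in liver minus the change in lung was 0.48 for Ech1 and 0.81 for Hsd17b4. At 10 mg/kg/day it was 0.78 for Acaa1a, 0.64 for Decr2, 0.42 for Ech1, 0.80 for Hsd17b4 and -0.51 for Pecr. The lung arrays held hepatocyte markers in every dose group, and the part of those in these differences was not tested.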

How the results depend on the processing

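Of 2122 values of single genes under the alternatives, 2059 kept their direction and their side of the threshold, 10 lost a call, 13 gained one and 40 changed sign. Leaving out litters singly left the liver member counts at 5 and 7 and moved that of lung between 1 and 2 at each dose, that of the tissue difference at 5 mg/kg/day between 2 and 3, and the 13 pair tests passed between 12 and 14. The lung count at 5 mg/kg/day was 2 in 1 fit of both tissues and with the hepatocyte covariate, and 0 without litter 1 of the unexposed and lower-dose lung groups. With that covariate 1 partner was called in lung at each dose. Without liver control litters 2, 3 and 5, 7 partners rose in liver at 5 mg/kg/day, 3 members differed between tissues at 10 mg/kg/day, and 4 pair tests passed, because 2 against 5 litters cannot reach the threshold. The shares of all genes called under the alternatives are not reported here, so the member and partner counts under them have no background beside them. The mean of probe sets gave Pecr -0.15 (adjusted p = 0.386) in liver at 10 mg/kg/day and Acaa1a 0.59 (adjusted p = 0.0388) at 5 mg/kg/day, and Ech1 in lung at 10 mg/kg/day was called in 1 fit of both tissues (adjusted p = 0.0378). The cause of the other shifts was not tested.

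Same-numbered litters did not meet the rule for pairing, that every correlation of their deviations pass 0.1. Within a tissue 6 of 20 passed and 6 were best with their own number. Between liver and lung, 3 of 5 passed at 0, 3 of 5 at 5 and 5 of 5 at 10 mg/kg/day, and 5, 3 and 5 were best with their own number, a hint from the data that these arrays may share litters. With dose and number as a block, the same 2 members at 5 and the same 5 at 10 mg/kg/day differed between the tissues. As a replicate block the numbers left 1 called member in lung at 10 mg/kg/day, since Acaa1b had an adjusted p = 0.0646, and 10 partners in liver at each dose.

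All changes of sign were of uncalled values. In liver at 10 mg/kg/day Acox3 gave 0.0052 with array weights, 0.010 with the mean of probe sets, 0.17 without liver control litters 2, 3 and 5 and -0.11 to 0.11 with single litters left out. Without those control litters Acox2 gave 0.25 in liver at 5 mg/kg/day and 0.12 as the tissue difference at 5 mg/kg/day. In lung Acaa1a gave 0.012 at the lower and 0.067 at the higher dose with the mean of probe sets, and 0.0056 without lung litter 1. Without that litter Acox2 gave -0.061 as the tissue difference at 10 mg/kg/day and 0.018 between the doses in lung, where the hepatocyte covariate gave 0.053. With single litters left out, Acaa1a in lung at 10 mg/kg/day ran from -0.048 to 0.022, Acox2 there from -0.020 to 0.20, its tissue difference at 10 mg/kg/day from -0.088 to 0.16 and its lung difference between doses from -0.075 to 0.018. Acox3 ran from -0.22 to 0.0069 between unexposed tissues and from -0.016 to 0.028 between doses in lung, Decr2 from -0.056 to 0.090 between doses and from -0.016 to 0.13 at 5 mg/kg/day in lung, and Hsd17b4 from -0.033 to 0.11 between doses in liver.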
